A study of Canis lupus familiaris with 2 samples.

Results

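The let-7 family is described here as it was measured in serum of dogs with muscular dystrophy and of normal dogs. Its members were taken by name from the spots of a miRNA array, as all spots named let-7 together with miR-98, which gave 8 miRNAs with 1 spot each beside 283 other dog miRNAs on the array. They are let-7a, let-7b, let-7c, let-7e, let-7f, let-7g, let-7j and miR-98. The dystrophic serum was that of CXMD_J, a dog colony with X-linked muscular dystrophy that serves as a model of Duchenne muscular dystrophy, and the normal serum came from unaffected dogs of that colony. All dogs were males at 2 months of age. Serum of 3 dogs was pooled for each condition, and the RNA of each pool was labeled with Cy5 and hybridized to 1 array of 1 color. There is therefore no replicate in either condition, the spread between dogs was not measured, and no test between the conditions could be made.

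let-7 miRNAs are known as a large and conserved family whose members share a seed, the stretch of bases that pairs with target mRNAs, and differ at few positions outside it. miR-98 belongs to the same family under another name. let-7 builds up as cells differentiate and represses growth-related genes such as the RAS and HMGA genes, while the RNA-binding protein LIN28 blocks its maturation in immature cells. The family is expressed in most tissues, blood cells among them, and is found in serum. Because the sequences are so alike, labeled RNA of 1 member can bind the spot of another, and the share of each in a signal is uncertain.

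The brightness of each spot was read against the 1408 blank spots of its array. The mean of these blank spots, trimmed at both ends, was 118 scanner units for normal serum and 116 for dystrophic serum. A miRNA counted as detected when its spot exceeded that mean by 2 SD of the trimmed blank spots, which put the limit at 126 and 124. This is a lenient limit: 9.38% of all blank spots of the normal array and 8.59% of those of the dystrophic array were above it. Of 181 spots named as having no probe, 48 and 43 were above it. Signals above the blank mean were scaled so that the median of the detected dog miRNAs was 25 on each array, and are called normalized signals below. The error given is a 95% spot-noise interval. It was taken from the range of the central 95% of the blank spots and from the variation of 6.67% between the 8 spots of each of 10 bright control probes, and it says nothing of how dogs, RNA extractions or arrays differ.

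The let-7 family read close to background in both sera. Its median normalized signal was 12.8 in normal serum, beside 10.3 for all dog miRNAs. In dystrophic serum it was 8.70, beside 12.8 for all. In normal serum 5 of the 8 members were above the detection limit, compared with 54.6% of all dog miRNAs. In dystrophic serum 5 of the 8 were above it as well, compared with 64.6% of all. Those detected in both were let-7a, let-7b, let-7c and let-7e, which is 4 of 8 beside 48.8% of all dog miRNAs. let-7g was detected in normal serum alone, let-7f in dystrophic serum alone, and let-7j and miR-98 in neither. The 3 brightest spots of the family, let-7a, let-7b and let-7c, were dimmer in dystrophic serum, but the noise interval of each ratio included 1.

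let-7a is made from 2 genes in the dog, and its spot cannot tell their products apart. The spot read 151 scanner units with normal serum and 144 with dystrophic serum. The normalized signals were 34.2 (spot-noise interval 14.6 to 43.5) and 23.6 (9.38 to 31.3). The dystrophic signal was the lower, and the intervals of the arrays overlapped widely. The dystrophic over normal ratio was 0.691, with a noise interval from 0.266 to 1.69. The local background, the light around the spot, was 153 units in normal serum, above the spot itself. let-7a therefore had no ratio when local background was subtracted.

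let-7c lies in a gene cluster with miR-99a. Its spot read 149 in normal and 143 in dystrophic serum, and its normalized signals were 32.7 (13.2 to 41.9) and 22.3 (8.16 to 30.0). The ratio was 0.684 (noise interval 0.242 to 1.78), close to that of let-7a. When local background was subtracted the ratio of let-7c was 1.67, which is the opposite direction.

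let-7b, which neighbors a let-7a gene, had the lowest ratio of the 4 members detected in both sera. Its spot read 156 in normal and 138 in dystrophic serum. The normalized signals were 39.0 (19.3 to 48.6) and 18.2 (4.08 to 25.6). The dystrophic signal was the lower by more than for let-7a or let-7c, and the intervals of the arrays still overlapped. The ratio was 0.465 (0.103 to 1.02). Of these 4, let-7b alone was at 0.5-fold or less, compared with 5.63% of the 142 dog miRNAs detected in both sera. With 4 members that share sequence, this count is a description, and it leaves out let-7g, which was detected in normal serum alone and has a bound in place of a ratio. No member was above 2-fold, against 13.4% of the 142. The call of let-7b at 0.5-fold or less was lost under 6 of 14 alternatives. Its ratio was then 0.585 without scaling between the arrays, 0.604 with scaling on the spike controls, 0.590 with untrimmed blank spots, 0.787 with normexp, 0.812 with local background and 0.862 without background subtraction.

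The ratio of let-7b was 0.674 times that of let-7a, a quotient that no scaling of an array can move. Its noise interval ran from 0.117 to 2.31, so a difference in response between the 2 members was not detectable on these arrays. The choice of background did move the quotient. The ratios of let-7b and let-7a were 0.145 and 0.461 with the negative-control background, and 0.862 and 0.931 without background subtraction.

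let-7e is part of a cluster with miR-99b and miR-125a. Its spot read 127 in normal and 128 in dystrophic serum, and the former was only 0.888 units above the detection limit. The normalized signals were 9.11 and 9.89, a ratio of 1.09 for which the noise interval had no limit on either side. Of the blank spots of the normal array, 8.10% were at least as bright as the spot of let-7e.

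let-7g had a spot of 134 in normal serum and 123 in dystrophic serum, where it lay 0.886 units below the limit. The normalized signal in normal serum was 16.5, at least 2.40-fold higher than in dystrophic serum when the latter was set to the lowest signal detected there, 6.87. In normal serum 44 blank spots, or 3.13%, were at least as bright, and the noise interval of the signal, from -2.64 to 24.9, included 0. On the dystrophic array the spot next to it was that of the muscle miRNA miR-133b, which read 3049, compared with 145 on the normal array. Other members also had bright spots next to them, of quality-control probes. The brightest beside let-7e read 155 in normal serum and 2481 in dystrophic serum, that beside let-7b 676 and 1118, and that beside let-7c 724 and 1110. The part of adjacent spots in the signals was not tested.

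let-7f went the other way, with a spot of 122 in normal and 125 in dystrophic serum. The dystrophic spot was 0.852 units above the limit, and 7.24% of the blank spots there were at least as bright. The normalized signal of 7.51 was below the lowest signal detected in normal serum, 8.30, so no fold was given. let-7j read 124 in normal and 120 in dystrophic serum. miR-98 read 113 on both arrays, below the mean blank spot of each. These 2 members did not exceed the limit in either serum, which says that they were not detectable here, not that they are absent from serum.

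**Figure D1:**
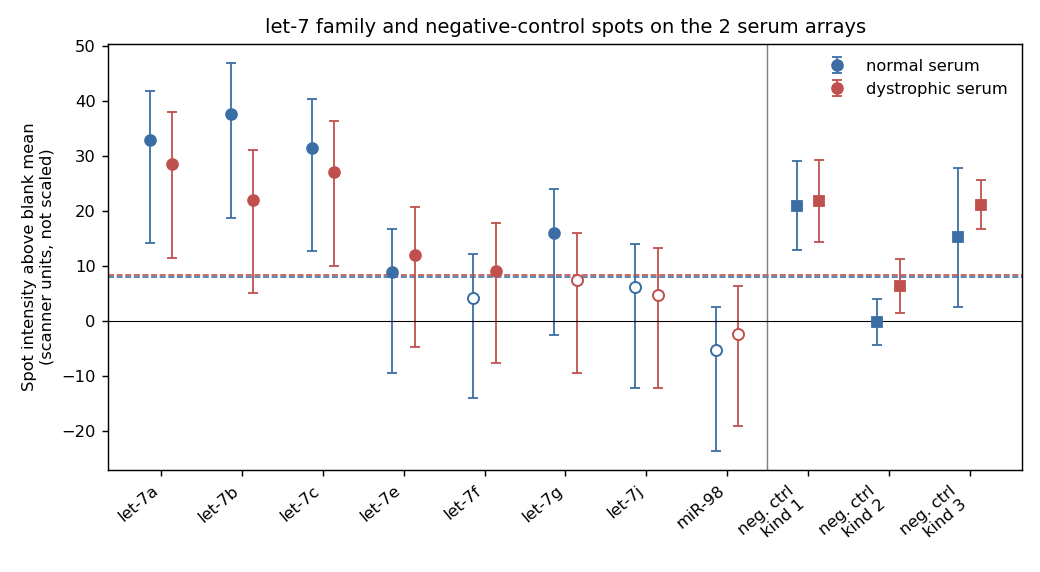
Spot intensity above the mean blank spot, in scanner units without scaling, for the 8 family members (circles, bars are 95% spot-noise intervals) and for the 3 kinds of negative-control probe (squares, bars are the SD between spots) on the arrays of normal and dystrophic serum. Dashed lines are the detection limits and open circles lie below them. let-7a, let-7b and let-7c stand above the means of the negative controls in both sera. For let-7b in dystrophic serum this is only just so, at 22.0 units beside 21.8 for the first kind. The other members do not stand above all of these means in either serum.

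The spots that the files name as negative controls set a further level by which the family can be read. Of the 32 such spots, 21 were above the limit on the normal array and 27 on the dystrophic array. The first kind read on average 20.9 units above the mean blank spot in normal serum (SD 8.15, 16 spots) and 21.8 in dystrophic serum (SD 7.41, 16 spots). The second kind was near the blank spots, at -0.27 and 6.23 (SD 4.16 and 4.91, 8 spots), and the third read 15.1 and 21.1 (SD 12.7 and 4.42, 8 spots). let-7a was 32.9 units above the mean blank spot in normal and 28.5 in dystrophic serum, and let-7c was 31.4 and 27.0 above it. On the normal array 2 negative-control spots were at least as bright as let-7a, and on the dystrophic array 3 were. For let-7b the distance was 37.5 units in normal serum, where 1 negative control was at least as bright. In dystrophic serum it was 22.0 units, and 11 of the 32 negative controls were at least as bright. The brightest negative control was 45.4 units above the mean blank spot in normal serum and 36.6 in dystrophic serum, above every member. The spots of let-7e, let-7f and let-7g lay within the range of these probes on both arrays, as did those of let-7a, let-7b and let-7c.

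The light around a spot gave a further measure of background. The local background of let-7a was 153 units in normal serum, above the 151 of the spot itself, as for 8 of the dog miRNAs on that array. In dystrophic serum it was 118 around let-7a. For let-7b it was 104 in normal and 95.3 in dystrophic serum, and for let-7c 119 and 91.0. The local background was lower on the dystrophic array around 6 of the members and higher around let-7f and miR-98, whereas its median over all dog miRNAs was 92.8 with normal and 99.7 with dystrophic serum. The part of the local background in the ratios was examined by subtracting it. The ratio of let-7b was then 0.812, that of let-7c was 1.67, and let-7a had no ratio.

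Taken over the family, 3 of the 4 members detected in both sera had a ratio below 1, compared with 41.5% of the 142 dog miRNAs. The median log2 ratio of the 4 was -0.54 (noise interval -1.56 to 0.40), beside 0.13 for all 142. That interval was built from the noise of the 2 middle members alone, let-7a and let-7c, and takes in neither let-7b nor let-7e. It included both 0 and 0.13. The difference of -0.67 does not depend on the scaling factors of the arrays. It did depend on the background: the median log2 ratio of the members was -0.10 without background subtraction, and with local background it turned to 0.74 over 3 members, beside 0.06 for all miRNAs detected in both. None of let-7a, let-7b and let-7c had a noise interval that lay wholly on 1 side of 1, and let-7e, without limits, could not have one. Of the 142, 28.9% did, but these include far brighter spots with narrower intervals. The comparison therefore does not show a lack of change in the members. Over all 8 members, 5 read lower on the dystrophic array before any scaling, and over all dog miRNAs of the array 93 did, or 32.0%. The summed normalized signal of the 8 members was 136 in normal serum (spot-noise SD 21.4) and 89.4 in dystrophic serum (SD 16.8). The difference was 47.0 with a spot-noise SD of 27.2, and the ratio of the sums was 0.655 (noise interval 0.406 to 1.06). These SDs and the interval of this ratio came from the SD of all blank spots, without the variation of the control probes. This ratio was 0.936 without background subtraction, and it turned to 1.23 with local background. let-7a, let-7b and let-7c together held 77.6% of the sum in normal serum and 71.7% in dystrophic serum. The detected members made up 1.01% of the signal of all detected dog miRNAs in normal serum and 0.448% in dystrophic serum, where the signal of the muscle miRNAs added to the total.

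**Figure D2:**
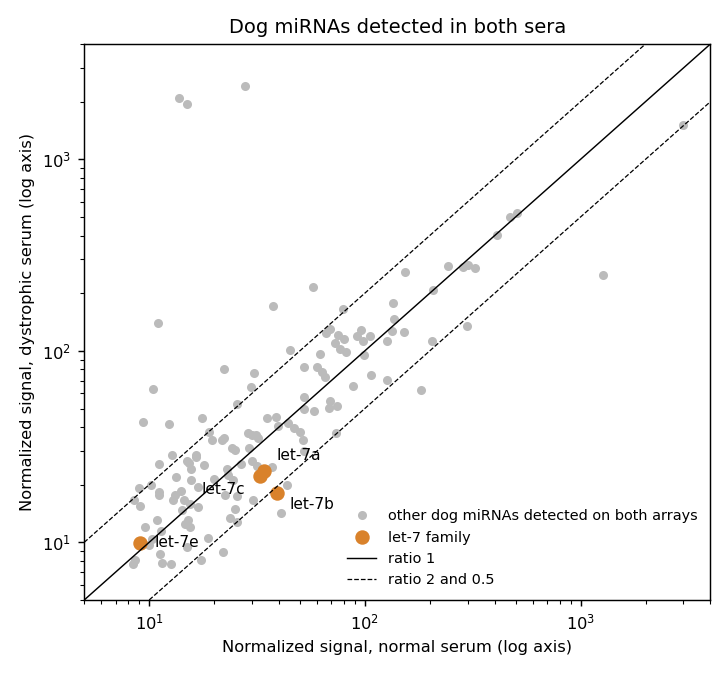
Normalized signal in dystrophic serum against that in normal serum, both on log axes, for the 142 dog miRNAs detected on both arrays, with 1 point per miRNA. let-7a and let-7c lie together between the lines of ratio 1 and 0.5, let-7b lies just beyond 0.5 and let-7e lies near 1 at the dim end of both axes.

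The place of a spot among the dog miRNAs of its array, from the brightest down, is left as it is by scaling. For a spot below the detection limit the place is a rank within the background and is not given. let-7b was in place 58 in normal serum and in place 119 in dystrophic serum. let-7a went from place 63 to place 99, and let-7c from 64 to 102. The spots of let-7a and let-7c differed between the arrays by only -6.52 and -6.59 scanner units, and that of let-7b by -17.8. The SD of all blank spots was 7.27 in normal and 7.19 in dystrophic serum. Near background a few units thus span many places, and the places carry no noise interval. let-7e, close to the limit on the normal array, was in place 151 and then 160.

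The miRNAs whose pair of signals lay nearest to that of a member were found by the distance between log2 normalized signals over the 2 arrays, a measure that depends on probe brightness as well as on amount. let-7a and let-7c were nearest to each other, at a distance of 0.10. They were followed by miR-187 and miR-19b for both. Nearest to let-7b were miR-106a, miR-20a and miR-20b, with ratios of 0.459, 0.348 and 0.548. Nearest to let-7e were miR-10a, miR-660 and miR-122, with signals between 8.14 and 10.5 in both sera.

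Several let-7 genes are transcribed together with other miRNAs, and the array carried 4 of these gene neighbors. In RefSeq's gene table for the assembly UU_Cfam_GSD_1.0, all 8 members matched a gene by name, 9 genes in all since let-7a has 2. A let-7a gene has a miR-99a gene within 10 kb, and the other has let-7b. let-7c likewise has a miR-99a gene within that distance, and let-7e has miR-99b and miR-125a. let-7f has a let-7d gene within it. The genes of let-7g and miR-98 overlap the protein-coding genes WDR82 and HUWE1, the let-7a gene beside miR-99a overlaps BLID, also protein-coding, and let-7c overlaps 2 long noncoding RNA genes. No miRNA gene is within 10 kb of let-7g, miR-98 or let-7j. miR-125b, which belongs to the let-7c and let-7a-2 clusters further away, was included.

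All 4 neighbors were detected in both sera, compared with 48.8% of all dog miRNAs. None of their ratios was below 1, compared with 41.5% of the 142 dog miRNAs detected in both sera. The normalized signal of miR-99a was 35.1 with normal and 44.6 with dystrophic serum, and the ratio was 1.27 (noise interval 0.791 to 2.94). That of miR-99b was 24.2 and 31.2, a ratio of 1.29 (0.646 to 6.48). miR-125a had signals of 31.2 and 36.3 and a ratio of 1.17 (0.655 to 3.17). miR-125b was the brightest, with 65.7 and 72.6 and a ratio of 1.11 (0.810 to 1.67). None of the 4 was above 2-fold or at 0.5-fold or less, and every noise interval included 1.

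The neighbors had a median ratio of 1.22, beside 1.09 for the 142 dog miRNAs detected in both sera, whereas let-7c and let-7a had ratios near 0.69. The quotient of the ratio of let-7c over that of miR-99a was 0.538, and over that of miR-125b it was 0.619. The noise intervals of these quotients, from 0.142 to 1.56 and from 0.203 to 1.69, both included 1. Members and neighbors of a cluster were thus not shown to differ. For let-7e the quotient was 0.839 over miR-99b and 0.931 over miR-125a, without limits.

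Serum also holds miRNAs released by blood cells and by muscle, and lists of these were read on the same arrays. In a bulk sample such as serum, fewer releasing cells, less RNA per cell and other reasons for a different amount cannot be told apart. Of 8 miRNAs listed for red cells, 7 were on the array, and their summed normalized signal was 1910 in normal and 684 in dystrophic serum. miR-451, a red-cell miRNA, had the brightest spot of this list in normal serum, and its signal was 1276 with normal and 250 with dystrophic serum, at a ratio of 0.196 (noise interval 0.161 to 0.237). miR-16 had a ratio of 0.346, miR-15a 0.466, miR-25 0.696 and miR-92a 0.835. All 5 red-cell miRNAs detected in both sera were below 1, compared with 41.5% of the 142 dog miRNAs. Of these 5, 3 were at 0.5-fold or less, compared with 5.63% of the 142. miR-15a is among the 3, but its dystrophic spot read 126, near the limit of 124, and its ratio had no noise limits. miR-144, which shares its gene cluster with miR-451, was not detected in either serum, and miR-185, with a signal of 11.4, was above the limit only in dystrophic serum. let-7a, let-7b and let-7c thus read lower in the serum in which this list read lower. The part of red-cell RNA in the let-7 signals was not tested.

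All 8 miRNAs listed for platelets and white cells were on the array, 5 were detected in each serum and in both, and their sum was 831 in normal and 751 in dystrophic serum. The brightest was miR-24, with a ratio of 1.07. miR-223, a miRNA of myeloid cells and platelets, had a ratio of 0.549 (0.434 to 0.684), while miR-150 and miR-191 had 0.743 and 0.756. miR-142 was the only one of the list above 2-fold, with 2.24 and a noise interval from 0.951 without upper limit. miR-126, miR-146a and miR-155 were not detected. The part of these cells in the let-7 signals was not tested.

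The muscle miRNAs served to check the labels of the arrays. The 8 of the list summed to 65.0 in normal and 6624 in dystrophic serum, and the brightest was miR-133b with 27.8 and 2426. The 4 detected in both sera, miR-133a, miR-133b, miR-133c and miR-206, were all above 2-fold, with ratios from 12.6 to 152. Their normal spots read only 129 to 145, near the limit of 126, and the noise interval had a lower bound of 7.0 for miR-206 and of at least 63.8 for the others, with an upper limit for miR-133b alone, 288. miR-208a and miR-208b were not detected, while miR-1 passed the limit only in dystrophic serum and miR-499 only in normal serum.

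**Figure D3:**
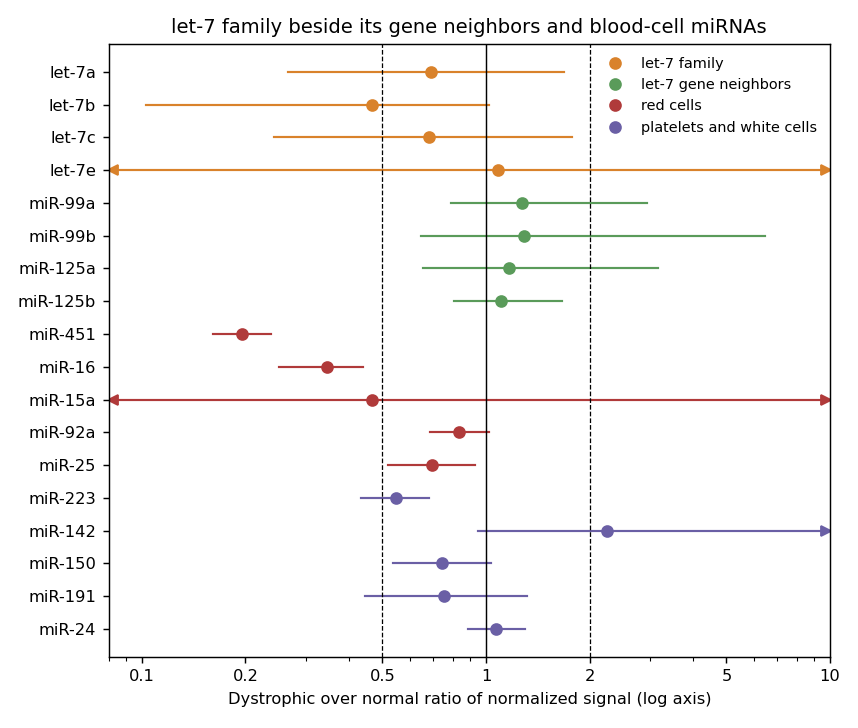
Dystrophic over normal ratio of the normalized signal on a log axis for the let-7 members detected in both sera, their gene neighbors and the blood-cell miRNAs detected in both sera. Points are ratios, lines are 95% spot-noise intervals, arrowheads mark intervals without a limit and dashed lines mark 0.5 and 2; let-7a, let-7b and let-7c lie left of 1, all 4 gene neighbors lie right of 1, and the intervals of all of these reach across it.

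The size of each let-7 ratio depended on what was taken as background. When the mean of the negative-control spots was subtracted in place of the blank spots, let-7a had a ratio of 0.461, let-7b of 0.145 and let-7c of 0.430. When no background was subtracted the ratios were 0.931, 0.862 and 0.930. let-7b stayed below 1 under all 14 alternatives that gave it a ratio, and at 0.5-fold or less under 8 of them. let-7a was below 1 under the 13 that gave it one, and let-7c under 13 of 14. Local background was the exception for both: let-7c was above 1 there, and let-7a lay below its local background in normal serum and above it in dystrophic serum, which gives no ratio but is the opposite direction. let-7e had ratios from 0.830 to 1.85 and was below 1 under 4 of 11.

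**Figure D4:**
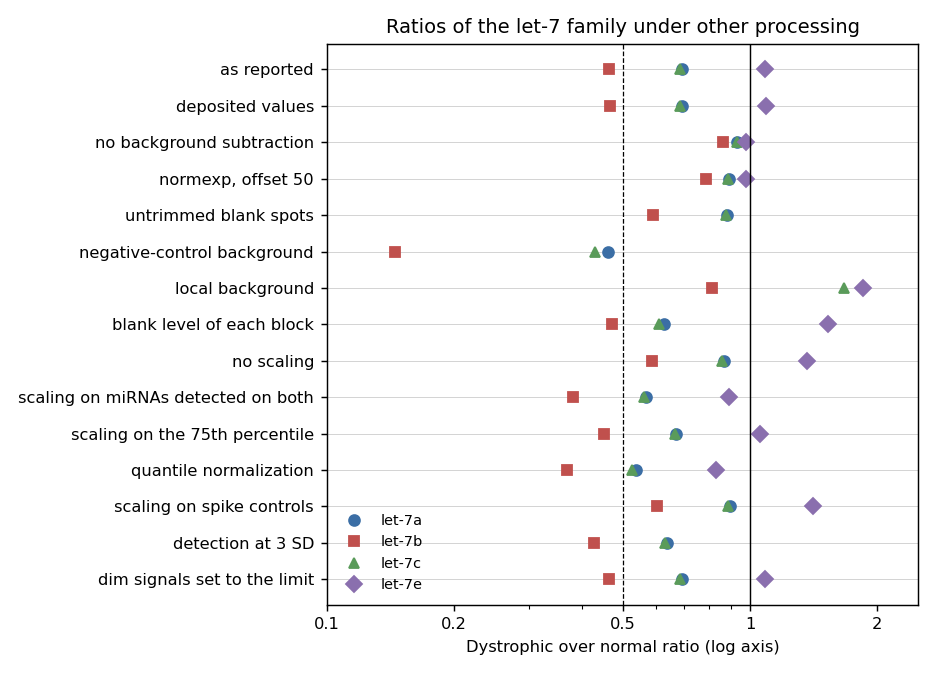
Dystrophic over normal ratio of let-7a, let-7b, let-7c and let-7e on a log axis, as reported and under each other way of processing that gave a ratio, with 1 point per member and setting. The solid line is a ratio of 1 and the dashed line 0.5; let-7b is the lowest of the members plotted in each setting, and let-7c passes 1 with local background alone.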

How the data were processed

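Serum miRNAs were measured on 2 arrays (3D-Gene 4 animal miRNA Oligo chip), 1 per pool of 3 dogs, and read by the authors with 3D-Gene Extraction software, whose version and settings are not given in the sources used here. The authors deposited the median intensity of each spot and of its local background at 635 nm, joined over 3 scanner gains and not normalized, and a table of normalized intensity rounded to 1 decimal.

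From each spot intensity the mean of the blank spots was subtracted after removing 5% of them at each end (rounded up). Spots above that mean plus 2 SD of the remaining blank spots and not marked as unusable were detected. Each array was scaled to a median of 25 over its detected dog miRNAs. These values differed from the deposited ones by at most 0.0498, with the same detection for all dog miRNAs. In the noise intervals of single miRNAs, the percentiles of the blank spots and 1.96 times the control variation were joined as the root of the sum of squares on each array. For ratios and quotients they were then joined on the log scale. The interval of the median log2 ratio joined those of the 2 middle members alone. That of the ratio of sums was 1.96 times the relative spot-noise SD on the log scale, from the SD of all blank spots and without the control variation. The number of arrays limits the precision, and no p-value was computed. Ratios above 2 and of 0.5 or less were called, the limits used by the study.

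The members, the lists, the alternatives and the miRNAs to be named (all members, all listed miRNAs and the 3 nearest to each member detected in both sera) were chosen with earlier results of these data known. The scripts were tested on simulated data. Normexp used an offset of 50. RefSeq gene positions served for names and neighbors alone. Scripts ran in Python 3.11.15 (numpy 2.4.6, pandas 2.3.3, matplotlib 3.10.9) and in R 4.3.3, with limma 3.58.1 for normexp alone.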

Additional observations from a re-analysis of the deposited data

How the results depend on the processing

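15 alternatives were run. The number of family members detected in dystrophic serum went from 5 to 3, and in normal serum from 5 to 4, with untrimmed blank spots, with the negative-control background and with detection at 3 SD; local background also left 4 in normal serum. When 25 was required as the signal in each serum no member was left, 0 in normal and 0 in dystrophic serum. The median log2 ratio of the members detected in both sera was 0.74 with local background, over 3 members, and the summed signal had a dystrophic over normal ratio of 1.23 there; the other alternatives that gave a value kept the median log2 ratio below 0 (13 of 14), with -1.22 as the lowest value, and the ratio of sums below 1 (12 of 13). A signal of at least 25 gave no median, and no ratio of sums was computed with the deposited values or obtained with the negative-control background. All ratios of let-7a, let-7b and let-7c lay within their noise intervals, and that of let-7e has no limits. The call of let-7b at 0.5-fold or less was lost with no background subtraction, normexp (0.787), untrimmed blank spots (0.590), local background, no scaling and scaling on the spike controls (0.604). Over all dog miRNAs 19 were above 2-fold and 8 at 0.5-fold or less; the counts were 34 and 3 without scaling, 39 and 3 with spike controls, 12 and 19 when the arrays were scaled on their shared detected miRNAs, 10 and 22 with quantile normalization, 6 and 1 without background subtraction, 6 and 1 with normexp, 22 and 3 with untrimmed blank spots, 25 and 16 with the negative-control background, 12 and 9 with detection at 3 SD, 8 and 3 with the minimum of 25, and 30 and 16 with dim signals set to the limit. No scaling, spike controls, shared miRNAs and quantile normalization moved the median log2 ratio of all miRNAs by 0.33, 0.38, -0.28 and -0.39, untrimmed blank spots by 0.32, detection at 3 SD by -0.12 and dim signals set to the limit by -0.35. The causes were not tested. Other scanner gains or mean intensities were not run, since 1 joined median per spot was used. With 1 array a condition, no replicate could be left out and no slide could be a block. No paired analysis was possible because the conditions have 1 array each. Closeness to background limits all members, beside the lack of replicates: the brightest spot was 37.5 units above the mean blank spot.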
